A study of Homo sapiens with 6 samples.

Results

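Amino acid transporters are the membrane proteins through which cells take up, exchange and release amino acids. The genes described here are the protein-coding genes of 7 solute carrier (SLC) families, SLC1, SLC3, SLC6, SLC7, SLC36, SLC38 and SLC43, found by gene symbol in the GENCODE release 29 annotation. The deposited table of 29908 genes held 52 of them. RNA sequencing compared 3 libraries of Hep3B-Con cells with 3 libraries of Hep3B-KD cells. Hep3B is an established line of human hepatocellular carcinoma (HCC), and both groups were transduced with lentivirus at a multiplicity of infection of 5 and selected with puromycin as stable cells. Hep3B-KD cells expressed a short hairpin RNA (shRNA) against DAGLA, the enzyme that makes the endocannabinoid 2-arachidonoylglycerol, whereas Hep3B-Con cells received a control virus, named shControl in the sample titles and empty vector in the design text. The study used 1 hairpin in 1 cell line. The sample records name DMEM as the culture medium and the paper names MEM-alpha, in both cases with foetal bovine serum. The question was how a lower DAGLA level changes mRNA expression in HCC cells.

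Carriers of these families differ in what drives them. SLC1, SLC6 and SLC38 proteins couple transport to sodium, and SLC36 carriers such as SLC36A1 to protons. SLC43 proteins act as facilitators. The light chains of the SLC7 family exchange amino acids and reach the plasma membrane bound to a heavy chain of the SLC3 family. Together these carriers supply amino acids for protein synthesis, for glutathione and for the activation of the growth kinase complex mTORC1. The genes of several of them are known targets of ATF4, the transcription factor of the amino acid response. Normal liver takes up and releases glutamine and other amino acids, and liver tumours are known for raised levels of LAT1 (SLC7A5) and ASCT2 (SLC1A5).

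The libraries held between 15861039 and 17572714 reads, recovered exactly from the deposited FPKM values (fragments scaled to exon length and library size). DAGLA was at 9.42, 9.40 and 9.02 FPKM in the Hep3B-Con libraries and at 4.62, 4.46 and 4.78 FPKM in the Hep3B-KD libraries, which fits the labels. All 10 hepatocyte and hepatoma markers were expressed, with a summed level of 3160 to 3220 FPKM in Hep3B-Con and 5420 to 5440 FPKM in Hep3B-KD, most of it from ALB and AMBP. Of these markers 8 were higher in Hep3B-KD, and HNF4A (log2 fold change -0.35) and FGB (-0.96) were lower. Of the 7 fibroblast markers 4 exceeded 0.5 FPKM, and their sum was 11.6 to 13.2 FPKM in Hep3B-Con and 7.17 to 7.89 FPKM in Hep3B-KD. The 4 endothelial markers summed to at most 0.385 FPKM in any library, and VWF, CDH5 and KDR stayed at or under 0.0189 FPKM. The 4 leukocyte markers in the table summed to 2.83 to 4.47 FPKM in Hep3B-Con and 4.0 to 4.83 FPKM in Hep3B-KD, nearly all from CD14 and LYZ. PTPRC, which defines leukocytes, reached at most 0.0377 FPKM. The part of these marker levels in the results below was not tested.

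The summed level of amino acid transporter mRNA was lower in Hep3B-KD cells, and most of the abundant transporter genes were lower. The FPKM of the 52 genes summed to 784, 773 and 770 in the Hep3B-Con libraries and to 446, 445 and 449 in the Hep3B-KD libraries, or 776 ± 7.77 (SD, n = 3) against 447 ± 1.75 (SD, n = 3). SLC7A5, the highest member, did not carry this difference alone, since without it the sums were 597 to 610 FPKM in Hep3B-Con and 391 to 394 FPKM in Hep3B-KD. The 3 SLC1 genes that were tested, carriers of glutamate and neutral amino acids, SLC7A5 with its heavy chain SLC3A2, the arginine carrier SLC7A1 and the glutamine carrier SLC38A1 were all lower in Hep3B-KD. Against this, 9 genes were higher: SLC7A2, SLC38A3, SLC38A4, SLC38A6, SLC38A9, SLC38A11, SLC36A4, SLC6A19 and SLC6A14. Some of these are known from liver or epithelia, but SLC7A9, the light chain of the renal cystine transporter, was lower. In bulk RNA, less mRNA per cell and fewer cells that express a gene cannot be told apart.

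Genes were tested with limma on log2(FPKM + 0.1) where their mean over the 6 libraries was at least 0.5 FPKM. Of the 52 transporter genes 35 passed this filter and 17 did not, and 12 of these 17 had 3 or fewer reads in every library. Calls were made at an adjusted p under 0.05, and with a 2-fold change where stated. Among the 35, 8 (22.9%) were lower by 2-fold or more, compared with 2.94% of all 14221 genes tested. In the opposite direction, 1 gene (2.86%) was higher at these thresholds, compared with 5.89% of all genes. The 8 include SLC6A15, which passed the filter through its Hep3B-Con libraries, with all Hep3B-KD values under 0.5 FPKM. At any fold change, 19 of the 35 (54.3%) were lower and 9 (25.7%) higher, compared with 23.8% and 36.1% of all genes, and 7 did not pass. The lowest Hep3B-Con library exceeded the highest Hep3B-KD library for 19 of the 35 (54.3%; 26.3% of all genes), and the reverse held for 11 (31.4%; 40.7% of all genes). The median log2 fold change was -0.40 over the 35 and 0.11 over all genes, so that a gene with no change at all on this scale lies slightly below the bulk of the transcriptome. Centred on the median log ratio, 19 of the 35 genes were lower and 6 higher at any fold change, and quantile normalization gave 20 lower and 6 higher. All genes together then turned from mostly higher calls (5133 higher and 3388 lower) to 4064 higher and 4308 lower after centring and to 4270 higher and 3902 lower after quantile normalization.

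Among the most abundant transporter genes, taken over all families, most were lower. Of the 10 transporter genes with the highest mean in Hep3B-Con, 9 were lower in Hep3B-KD and 1, SLC7A2, was higher. Of the 20 highest, 15 were lower and 3 higher. Over all genes tested, at any level, 23.8% were lower and 36.1% higher. The shares among equally abundant genes of the whole table were not taken, and ranking by the Hep3B-Con level itself favours lower genes. In the order of mean levels SLC7A5 and SLC38A2 changed places at the top, SLC7A1 went from place 7 to place 11, SLC7A2 from 8 to 5 and SLC6A19 from 13 to 8. The replicates of a group lay close together, and the p-values measure only the spread between these samples, which may be technical.

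**Figure D1:**
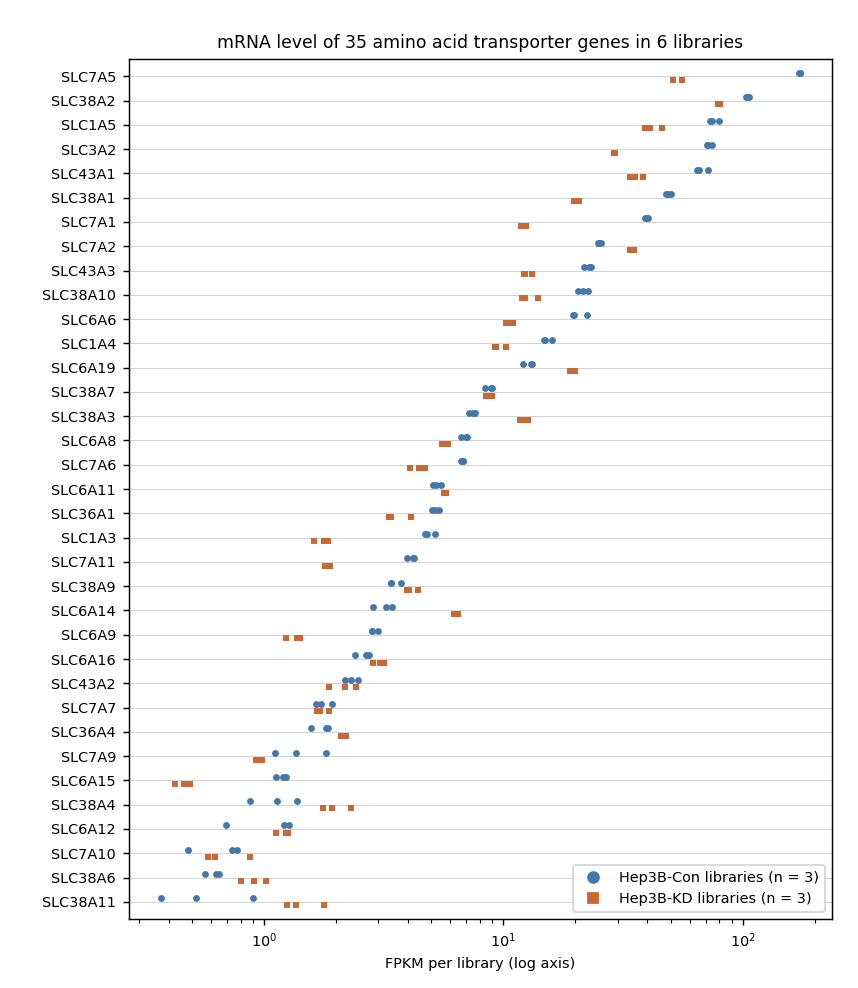
Level of each of the 35 tested transporter genes in every library, in FPKM on a log axis, ordered by the mean in Hep3B-Con. Circles are the 3 Hep3B-Con libraries and squares the 3 Hep3B-KD libraries. Among the 10 genes at the top the squares lie to the left of the circles for all but SLC7A2, which rose to between 33.9 and 35.1 FPKM.

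ATF4 binds with its C/EBP partners to a composite element of DNA whose core is here written TGATGNAA, with N for any base. It was searched on both strands of the RefSeq promoter windows, from 250 bases before to 50 bases after each transcript start (GRCh38.p14). A window was present for 39 of the 52 transporter genes and for 28 of the 35 tested. The letters occurred in 6 of these 28 genes (21.4%), and all 6 were lower in Hep3B-KD. They occurred in 6 of the 15 lower genes with a window (40.0%), in 0 of 7 higher genes and in 0 of 6 genes that passed neither way. Over all 35116 windows, which belong to 27305 genes, the share was 3.62% of windows. Counted by gene, as for the transporter genes, it was 4.46% over all genes with a window and 2.67% over those tested. It was 3.45% over all lower genes and 2.43% over all higher genes. Of all 250 tested genes that held the letters, 88 were lower and 90 higher. The 6 stretches are shown because they hold the match, in 3 genes of SLC1 and in 1 gene each of SLC3, SLC7 and SLC38. Each is written 5′ to 3′ on the strand of its gene, with the match in capitals, and 3 of them hold the match at or within 8 bases of the start.
SLC1A4 (chr2:64989381-64989410, plus strand, match from base -7, opposite strand): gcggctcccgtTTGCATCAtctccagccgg
SLC1A3 (chr5:36596357-36596386, plus strand, match from base -220): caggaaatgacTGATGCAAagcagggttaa
SLC3A2 (chr11:62881725-62881748, plus strand, match from base 38, opposite strand): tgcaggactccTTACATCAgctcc
SLC38A1 (chr12:46266502-46266531, minus strand, match from base -4): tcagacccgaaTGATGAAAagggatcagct
SLC7A1 (chr13:29595663-29595692, minus strand, match from base 8): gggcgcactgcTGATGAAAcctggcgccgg
SLC1A5 (chr19:46784893-46784922, minus strand, match from base -97): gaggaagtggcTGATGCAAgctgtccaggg

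Bases are counted from 1 at the transcript start, with negative numbers before it, and the number is that of the leftmost letter of the match. SLC3A2 and SLC7A1 hold the match inside the transcript, SLC1A4 and SLC38A1 across its start, SLC1A5 and SLC1A3 upstream. The 39 genes had 60 windows, since RefSeq gives several starts for some of them. The windows shown for SLC1A4, SLC3A2, SLC38A1 and SLC1A5 belong to starts inside the GENCODE gene, that of SLC1A3 to a start before it and that of SLC7A1 to its 5′ end, and which start Hep3B cells use was not tested. A match describes letters and is not a measured binding site. SLC7A5, SLC38A2, SLC43A1, SLC38A10, SLC6A8, SLC7A6, SLC36A1, SLC6A9 and SLC7A9 were lower and their windows did not hold these letters. ATF4 mRNA itself was at 216 ± 6.06 FPKM (SD, n = 3) in Hep3B-Con and 129 ± 2.30 FPKM (SD, n = 3) in Hep3B-KD, on the log2 scale a difference of -0.74 (adjusted p = 1.85e-06). The part of ATF4 in the transporter levels was not tested.

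A second sequence that, among the transporter genes, occurred only in lower ones was the match to the seed of the hairpin. Short hairpins can act like microRNAs on mRNAs whose 3′ UTR pairs with bases 2 to 8 of the guide strand. The target in DAGLA and its reverse complement, taken here as the guide, are written below with the seed match and the seed in capitals.
shDAGLA target: gcgacaacaagGCCTTCAa
guide strand: tTGAAGGCcttgttgtcgc

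The seed match GCCTTCA was searched in the longest 3′ UTR of each gene in GENCODE release 29. It occurred in 7 of the 35 tested transporter genes (20%), compared with 14.5% of all tested genes with a 3′ UTR. All 7 were lower in Hep3B-KD, 5 of them by at least 2-fold, compared with 39.3% and 8.24% of all 1627 genes that hold the match. None of the 9 higher transporter genes held it, compared with 535 of 4467 higher genes with a 3′ UTR among all genes. Of the 8 genes that were lower by at least 2-fold, 5 (62.5%) held the match, compared with 39.2% of all genes so called. The 5 include SLC6A15, which passed the filter through its Hep3B-Con libraries. The sites of 6 of the 7 genes with the match are shown with up to 11 bases on either side and the position of the leftmost capital in the 3′ UTR.
SLC3A2 (base 135 of 182): gggtgttttctGCCTTCAaataaaagtca
SLC38A1 (base 884 of 5907): tgatgcatttaGCCTTCAaccctacctgt
SLC38A1 (base 1733 of 5907): aatccccaaagGCCTTCActctcactgag
SLC38A10 (base 546 of 556): taaacacttttGCCTTCAccca
SLC36A1 (base 1392 of 4127): cctcaaggtcaGCCTTCAgatttgggagc
SLC1A3 (base 736 of 2065): tggagcacgagGCCTTCAgaaaagacact
SLC7A11 (base 872 of 7859): atgcattttaaGCCTTCAaattacattat

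Without the genes that hold the seed match, 28 transporter genes remained, of which 12 (42.9%) were lower at any fold change, compared with 25.8% of all 9556 genes without it. By at least 2-fold, 3 of the 28 (10.7%) were lower, namely SLC7A5, SLC7A1 and SLC6A9, compared with 2.18% of the 9556. Their median log2 fold change was -0.01, against 0.11 over the 9556 genes. SLC3A2, SLC38A1 and SLC1A3 held both the seed match and the promoter match, 4 genes held the seed match alone and 3 the promoter match alone. Longer 3′ UTRs hold more matches to any such sequence, and whether the guide acted on these mRNAs was not tested.

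The heteromeric transporters pair an SLC3 heavy chain with an SLC7 light chain, and they showed the largest difference in summed level of the 8 groups of carriers described here. Their summed level was 260.8 FPKM in Hep3B-Con and 93.1 FPKM in Hep3B-KD, and their share of all transporter FPKM went from 33.2 to 34.1% down to 20.1 to 21.4%. Of 10 genes 7 were tested, 5 were lower, 3 of them by at least 2-fold, and none was higher. Of all genes tested, 23.8% were lower, 2.94% lower by at least 2-fold and 36.1% higher. SLC7A5 (chromosome 16, 87830023 to 87869488, minus strand, GRCh38), the light chain LAT1 that exchanges glutamine for leucine and other large neutral amino acids, stood at 174, 174 and 173 FPKM in the Hep3B-Con libraries and at 55.8, 51.1 and 56.1 FPKM in the Hep3B-KD libraries. The groups lay far apart, with 3.20 times less mRNA in Hep3B-KD (log2 fold change -1.68, SE 0.0367, adjusted p = 3.66e-07). Its share of all transporter FPKM was 22.2 to 22.5% in Hep3B-Con and 11.5 to 12.5% in Hep3B-KD.

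SLC3A2 (chromosome 11, 62856102 to 62888875, plus strand), the heavy chain CD98 that carries LAT1 and other light chains to the membrane, was at 71.6, 71.2 and 74.4 FPKM in Hep3B-Con and at 29.4, 29.02 and 28.98 FPKM in Hep3B-KD. The Hep3B-KD libraries had an SD of 0.214 FPKM and lay below all Hep3B-Con libraries, 2.48 times lower (log2 fold change -1.31, SE 0.0237, adjusted p = 1.78e-07). Both subunits of the LAT1 transporter were therefore lower, but not to the same degree. SLC7A5 over SLC3A2 was 2.43, 2.45 and 2.32 in the Hep3B-Con libraries and 1.90, 1.76 and 1.93 in the Hep3B-KD libraries, without overlap. A pseudogene copy, SLC7A5P1, was at 3.86 FPKM in Hep3B-Con and 3.10 FPKM in Hep3B-KD, a small amount beside SLC7A5, and reads shared between the copies could have been counted for either.

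SLC7A11, the cystine and glutamate exchanger xCT that feeds glutathione synthesis, was much less abundant. Its libraries held 3.95, 4.22 and 4.19 FPKM in Hep3B-Con and 1.88, 1.79 and 1.82 FPKM in Hep3B-KD, 2.19 times lower and without overlap (log2 fold change -1.13, SE 0.0605, adjusted p = 1.08e-05). SLC7A6, the light chain y+LAT2 that exchanges cationic for neutral amino acids, was at 6.76, 6.65 and 6.81 FPKM in Hep3B-Con and at 4.69, 4.09 and 4.45 FPKM in Hep3B-KD. This is 1.52 times lower (log2 fold change -0.60, adjusted p = 1.43e-04). SLC7A6 shares 3371 exon bases with SLC7A6OS on the opposite strand (1.66 and 1.82 FPKM), and the sources used here do not say whether strand was counted. SLC7A7, the closely related y+LAT1, did not pass, with 1.64 to 1.92 FPKM in Hep3B-Con and 1.67 to 1.87 FPKM in Hep3B-KD.

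The remaining heteromeric genes were at low levels. SLC7A9, the light chain of the renal cystine transporter, fell by 0.51 on the log2 scale (adjusted p = 0.0482), and its call was lost in 10 of 16 alternative analyses. Its own heavy chain SLC3A1 had at most 2 reads in any library. SLC7A10, the light chain Asc-1 for small neutral amino acids, was at 0.481 to 0.871 FPKM over all 6 libraries, with overlapping groups. SLC7A8 (LAT2) and SLC7A13 had at most 2 reads, so that SLC7A5 was the only one of the LAT1 and LAT2 light chains with more than 3 reads in a library.

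**Figure D2:**
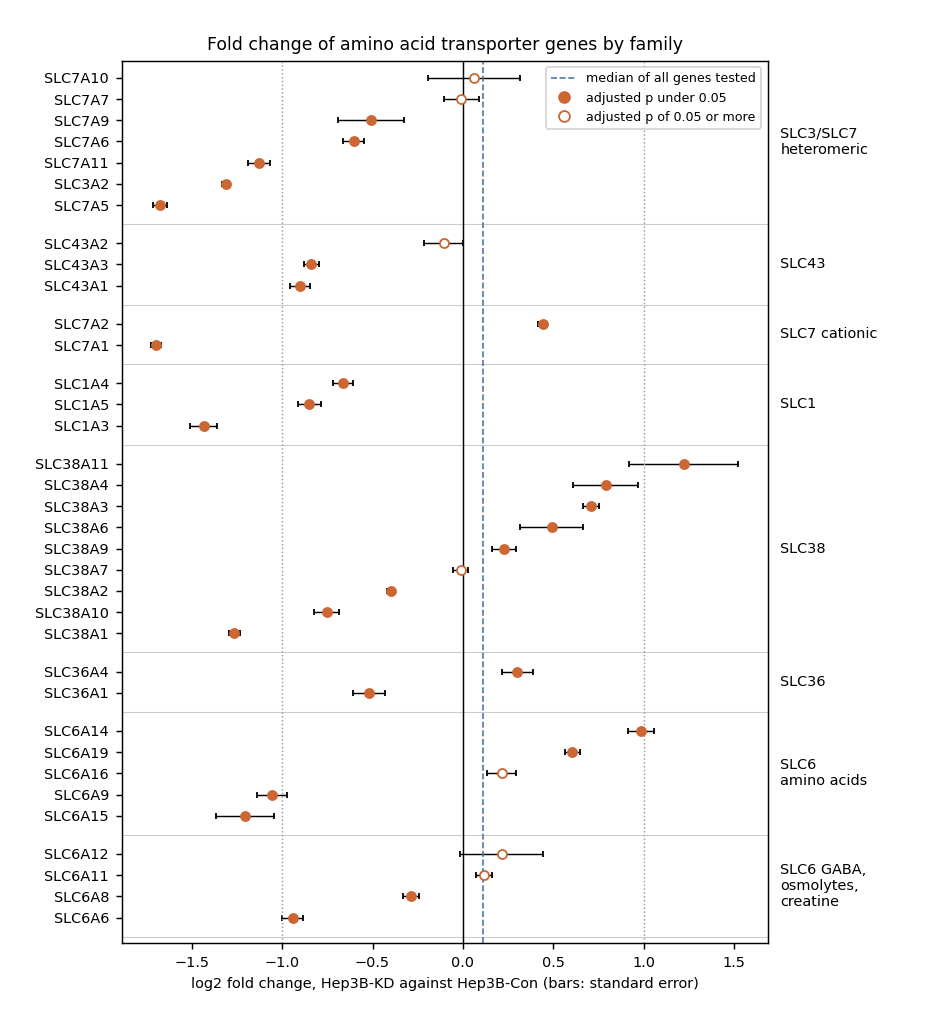
The log2 fold change of the 35 tested transporter genes with its standard error, grouped by family. Filled points passed an adjusted p of 0.05, the dashed line marks the median of all genes tested (0.11) and the dotted lines mark 2-fold. All SLC1 genes lie to the left of 0 and all points of 2-fold or more but SLC38A11 lie on the left.

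The SLC43 family holds the system L facilitators SLC43A1 and SLC43A2, which carry large neutral amino acids without exchange. Of its 3 genes, all tested, 2 were lower, where 23.8% of all genes tested were. The summed level of the 3 genes was 92.04 FPKM in Hep3B-Con and 50.6 FPKM in Hep3B-KD. SLC43A1, or LAT3, was at 71.4, 65.7 and 64.4 FPKM in Hep3B-Con and at 33.8, 35.6 and 38.2 FPKM in Hep3B-KD, 1.87 times lower with no overlap (log2 fold change -0.90, SE 0.0561, adjusted p = 1.99e-05). SLC43A2, or LAT4, did not pass, at 2.18 to 2.46 FPKM against 1.87 to 2.41 FPKM. SLC43A3, known as a carrier of purine nucleobases rather than amino acids, was at 23.2, 22.7 and 21.8 FPKM in Hep3B-Con and at 12.3, 12.2 and 13.2 FPKM in Hep3B-KD (1.79 times lower, adjusted p = 7.74e-06). SLC43A1 and SLC43A3 lie 57 kb apart on the minus strand of chromosome 11 (57484534 to 57515786 and 57406954 to 57427580), and their log2 fold changes were -0.90 and -0.84.

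Among the cationic amino acid transporters, which take up arginine, lysine and ornithine, the main pair moved in opposite directions. SLC7A1 (chromosome 13, 29509410 to 29595688, minus strand), the widely expressed carrier CAT1, was at 39.1, 40.0 and 40.1 FPKM in Hep3B-Con and at 12.2, 11.9 and 12.5 FPKM in Hep3B-KD. It was 3.24 times lower, with the largest fold decrease of the 35 genes (log2 fold change -1.70, SE 0.0288, adjusted p = 1.39e-07). SLC7A2, or CAT2, which liver cells are known to express, was at 25.6, 25.2 and 24.9 FPKM in Hep3B-Con and at 35.1, 33.9 and 34.0 FPKM in Hep3B-KD, 1.36 times higher (log2 fold change 0.44, SE 0.0254, adjusted p = 1.44e-05). SLC7A1 was thus the more abundant of the pair in Hep3B-Con, with ratios of 1.53, 1.59 and 1.61 to SLC7A2, and the less abundant in Hep3B-KD, with ratios of 0.348, 0.350 and 0.368. The other members, SLC7A4 and SLC7A14, had at most 3 reads in any library.

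The SLC1 family holds the exchangers of small neutral amino acids and the high-affinity glutamate carriers, and all 3 of its tested genes were lower. Of all genes tested, 23.8% were lower. SLC1A5 (chromosome 19, 46774883 to 46788594, minus strand), the glutamine exchanger ASCT2, was at 79.4, 73.4 and 74.7 FPKM in Hep3B-Con and at 39.1, 46.2 and 41.0 FPKM in Hep3B-KD. The groups did not overlap, and the level was 1.80 times lower (log2 fold change -0.85, SE 0.0639, adjusted p = 4.57e-05). SLC1A4, or ASCT1, which carries serine, alanine and cysteine, was at 16.0, 14.8 and 14.9 FPKM in Hep3B-Con and at 9.30, 10.3 and 9.21 FPKM in Hep3B-KD, 1.58 times lower (log2 fold change -0.66, adjusted p = 7.21e-05).

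SLC1A3, the glutamate carrier EAAT1, showed the largest fold change of the family at a low level. It was at 4.70, 5.15 and 4.80 FPKM in Hep3B-Con and at 1.61, 1.85 and 1.78 FPKM in Hep3B-KD, 2.70 times lower (log2 fold change -1.43, SE 0.0746, adjusted p = 9.67e-06). Between 160 and 561 reads per library lay behind these values. The other glutamate carriers were below the filter, with SLC1A1 (EAAT3) at 0.259 to 0.496 FPKM and SLC1A7 (EAAT5) at 0.233 to 0.518 FPKM over all libraries, overlapping between the groups. SLC1A2 (EAAT2) had at most 1 read in a library.

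The SLC38 family, the sodium-coupled carriers of glutamine, alanine and other neutral amino acids, was split. Of its 11 genes 9 were tested, 3 were lower and 5 higher, where 23.8% of all genes tested were lower and 36.1% higher. SLC38A2 (chromosome 12, 46358189 to 46372867, minus strand), the amino acid-responsive carrier SNAT2, was at 104, 106 and 105 FPKM in Hep3B-Con and at 80.8, 78.7 and 79.1 FPKM in Hep3B-KD. This decrease of 1.32 times was small but larger than the spread between replicates (log2 fold change -0.40, SE 0.0186, adjusted p = 6.31e-06). Since other genes lost more, the share of SLC38A2 in all transporter FPKM rose from 13.2 to 13.7% in Hep3B-Con to 17.6 to 18.1% in Hep3B-KD, and it became the most abundant of the 52 genes. SLC38A1, or SNAT1, which lies 88.2 kb away on the same strand, was at 48.0, 50.4 and 48.9 FPKM in Hep3B-Con and at 20.8, 19.8 and 20.5 FPKM in Hep3B-KD. It was 2.40 times lower (log2 fold change -1.26, SE 0.0298, adjusted p = 4.56e-07). SLC38A10, a widely expressed member, was at 22.6, 20.4 and 21.5 FPKM in Hep3B-Con and at 11.9, 14.0 and 12.3 FPKM in Hep3B-KD (1.69 times lower, adjusted p = 1.12e-04).

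Higher in Hep3B-KD were SLC38A3, SLC38A4, SLC38A6, SLC38A9 and SLC38A11. SLC38A3, or SNAT3, a glutamine carrier of hepatocytes, was at 7.64, 7.44 and 7.18 FPKM in Hep3B-Con and at 12.7, 11.7 and 12.2 FPKM in Hep3B-KD, 1.64 times higher without overlap (log2 fold change 0.71, SE 0.0448, adjusted p = 2.13e-05). SLC38A4, or SNAT4, was at 1.13, 0.874 and 1.38 FPKM in Hep3B-Con and at 1.76, 1.92 and 2.31 FPKM in Hep3B-KD (1.73 times higher, adjusted p = 0.00853). SLC38A11 was the only transporter gene that was higher by at least 2-fold, and its libraries varied more, with 0.369, 0.902 and 0.519 FPKM in Hep3B-Con and 1.77, 1.36 and 1.25 FPKM in Hep3B-KD. On the log2 scale it rose by 1.22 (SE 0.302, adjusted p = 0.0118), with 36, 87 and 48 reads in Hep3B-Con and 156, 121 and 115 reads in Hep3B-KD. It stayed under 2-fold with a pseudocount of 1, with quantile normalization and without Hep3B-Con replicate 1 (0.97).

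Both SLC38 carriers known from lysosomes changed little. SLC38A9, which senses arginine for mTORC1, was at 3.39 to 3.73 FPKM in Hep3B-Con and at 3.95 to 4.41 FPKM in Hep3B-KD (log2 fold change 0.23, adjusted p = 0.0250), a call lost in 7 of 16 alternatives. SLC38A7, which exports glutamine from lysosomes, did not pass, at 8.41 to 8.94 FPKM in Hep3B-Con and 8.49 to 8.94 FPKM in Hep3B-KD. SLC38A6 was higher at 0.564 to 0.648 against 0.796 to 1.02 FPKM (log2 fold change 0.49, adjusted p = 0.0460), a call lost in 10 of 15 alternatives. SLC38A5 and SLC38A8 lay under the filter, with at most 9 and 2 reads.

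**Figure D3:**
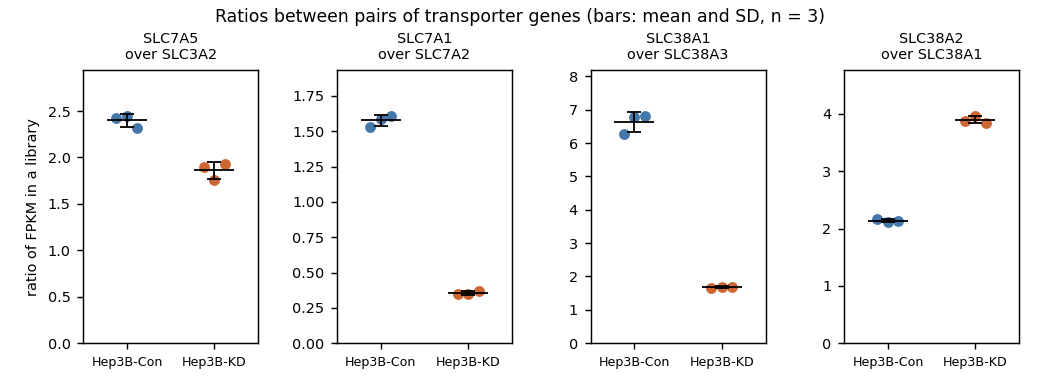
Ratios of FPKM between pairs of related transporter genes in each library, with a linear axis from 0. Points are libraries and bars the mean and SD of 3. The ratio of SLC7A1 to SLC7A2 went from 1.57 ± 0.0439 in Hep3B-Con to 0.355 ± 0.0109 in Hep3B-KD, and no pair of groups overlaps in any panel.

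Ratios between genes of 1 library do not depend on the scaling of a library, and the 4 that were taken differed between the groups beyond their spread. Each pair joins genes whose fold changes given above already differ, so the ratios describe the same values and are no separate support. SLC38A1 over SLC38A3 was 6.28, 6.78 and 6.82 in the Hep3B-Con libraries and 1.64, 1.69 and 1.69 in the Hep3B-KD libraries. SLC38A2 over SLC38A1 was 2.16, 2.11 and 2.14 in Hep3B-Con and 3.88, 3.97 and 3.85 in Hep3B-KD. For each of these 2 ratios, and for SLC7A5 over SLC3A2 and SLC7A1 over SLC7A2, the two-sided exact permutation test gave p = 0.1, the smallest value that 3 libraries against 3 allow, and the same after Benjamini-Hochberg adjustment over the 4.

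The SLC36 carriers, known from the plasma membrane and lysosomes, were at low levels, and the 2 that were tested moved in opposite directions. SLC36A1, or PAT1, was at 5.05 to 5.37 FPKM in Hep3B-Con and at 3.33 to 4.11 FPKM in Hep3B-KD (log2 fold change -0.52, adjusted p = 0.00204). SLC36A4, or PAT4, was at 1.58 to 1.84 FPKM in Hep3B-Con and at 2.10 to 2.20 FPKM in Hep3B-KD (log2 fold change 0.30, adjusted p = 0.0225), a call lost in 6 of 16 alternatives. SLC36A2 had at most 1 read in a library.

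The SLC6 carriers of amino acids were the only group with a higher summed level in Hep3B-KD, 30.7 against 22.6 FPKM, and this came from its abundant members. SLC6A19, the neutral amino acid carrier B0AT1 known from kidney and intestine, was at 13.1, 13.2 and 12.1 FPKM in Hep3B-Con and at 20, 19.1 and 19.4 FPKM in Hep3B-KD. It was 1.52 times higher with no overlap (log2 fold change 0.61, SE 0.0425, adjusted p = 3.41e-05). SLC6A14, an epithelial carrier of neutral and cationic amino acids, was at 3.24, 3.41 and 2.86 FPKM in Hep3B-Con and at 6.22, 6.36 and 6.48 FPKM in Hep3B-KD. With 1.98 times more mRNA (log2 fold change 0.99, SE 0.0717, adjusted p = 3.96e-05) it fell just short of 2-fold. It passed that threshold with each library rescaled to the same FPKM sum (log2 fold change 1.01), with a pseudocount of 0.01 and with voom. It also passed without Hep3B-Con replicate 1 (1.002), Hep3B-Con replicate 2 (1.04) or Hep3B-KD replicate 1 (1.0005).

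The rarer members of this group went the other way. SLC6A9, the glycine carrier GlyT1, was at 2.82, 2.81 and 3.004 FPKM in Hep3B-Con and at 1.41, 1.23 and 1.37 FPKM in Hep3B-KD (2.08 times lower, adjusted p = 5.73e-05). SLC6A15, a carrier of branched-chain amino acids and proline known from brain, was at 1.12, 1.20 and 1.24 FPKM in Hep3B-Con and at 0.424, 0.461 and 0.487 FPKM in Hep3B-KD (2.31 times lower, adjusted p = 6.69e-04), with 59 to 183 reads per library. It passed the filter through its Hep3B-Con libraries, since all its Hep3B-KD values were under 0.5 FPKM. SLC6A16, which has no known substrate, did not pass, although its Hep3B-KD libraries (2.86 to 3.18 FPKM) all lay above its Hep3B-Con libraries (2.39 to 2.75 FPKM, adjusted p = 0.0526). The proline carriers SLC6A7 and SLC6A20 had at most 1 read.

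Among the SLC6 carriers of taurine, creatine, GABA, betaine and monoamines, the taurine carrier showed the largest fold change of the 4 tested. SLC6A6 was at 22.3, 19.7 and 19.5 FPKM in Hep3B-Con and at 10.9, 10.7 and 10.2 FPKM in Hep3B-KD, 1.92 times lower (log2 fold change -0.94, SE 0.0577, adjusted p = 1.86e-05). The creatine carrier SLC6A8 was at 6.64 to 7.06 FPKM in Hep3B-Con and at 5.51 to 5.87 FPKM in Hep3B-KD (log2 fold change -0.29, adjusted p = 0.00177). The GABA carrier SLC6A11 did not pass (5.06 to 5.50 against 5.67 to 5.74 FPKM, adjusted p = 0.0674), nor did the betaine carrier SLC6A12 (0.690 to 1.27 against 1.12 to 1.26 FPKM). SLC6A13, SLC6A3 and SLC6A4, carriers of GABA, dopamine and serotonin, were under the filter, and SLC6A13 was the highest of these with 0.0939 to 0.170 FPKM in Hep3B-Con and 0.279 to 0.412 FPKM in Hep3B-KD.

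Other carriers of amino acids and peptides, which belong to further families, moved in both directions. Of the 14 tested, 6 were lower, none of them by 2-fold, and 5 were higher, where 23.8% of all genes were lower and 36.1% higher. Their median difference on the log2 scale was -0.03. The largest decreases were in mitochondrial SLC25A38, a glycine carrier (11.7 ± 0.666 against 6.23 ± 0.235 FPKM, log2 fold change -0.89, adjusted p = 1.73e-05), in SLC17A9, known as a vesicular carrier of nucleotides (-0.58), and in the mitochondrial serine carrier SFXN1 (-0.53). The largest increases were in SLC16A10, a facilitator of aromatic amino acids (1.78 ± 0.0710 against 3.72 ± 0.0377 FPKM, log2 fold change 1.02, adjusted p = 1.78e-05), in the peptide carrier SLC15A1 (0.80) and in SLC25A29, a mitochondrial carrier of basic amino acids (0.51).

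Regulators and targets of the amino acid response, the pathway in which the kinase GCN2 and ATF4 answer a shortage of amino acids, were more often lower than higher. Of the 23 genes, all tested, 15 were lower and 6 higher, where 23.8% of all genes were lower and 36.1% higher. The median difference was -0.34 on the log2 scale. The mTORC1 inhibitor DDIT4 (-2.05), the pseudokinase TRIB3 (-1.35) and CHAC1, a glutathione-degrading enzyme (41.3 ± 1.73 against 16.9 ± 0.898 FPKM, -1.28, adjusted p = 2.79e-06), were lower by at least 2-fold, and no gene was higher by as much. The largest increases were in PPP1R15B, a subunit of the eIF2 phosphatase (0.55), the GCN2 inhibitor IMPACT (0.40) and the kinase EIF2AK2 (0.39).

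Genes through which amino acids act on mTORC1 did not move one way. Of the 33 tested, 8 were lower and 14 higher, where 23.8% and 36.1% of all genes were, and the median difference of 0.12 on the log2 scale was near that of all genes. SESN3, an inhibitor of mTORC1 (1.88 ± 0.132 against 11.5 ± 0.461 FPKM, log2 fold change 2.55, adjusted p = 5.89e-07), the methionine-related sensor BMT2 (1.28) and the folliculin partner FNIP2 (1.25) were higher by at least 2-fold. The leucine sensor SESN2 was lower (42.9 ± 1.09 against 24.9 ± 0.849 FPKM, -0.78, adjusted p = 4.60e-06), as were the GATOR2 subunit SEH1L (-0.82) and the mTOR partner MLST8 (-0.67). Among partners of transporters and proteins of their traffic and turnover, 9 of 11 tested genes were higher and 1 lower. Of all genes, 36.1% were higher and 23.8% lower. The kinase SGK1 (5.86 ± 0.182 against 15.2 ± 0.357 FPKM, log2 fold change 1.36, adjusted p = 9.33e-07) and the ubiquitin ligases NEDD4 (1.14) and WWP1 (0.97) showed the largest increases, and the LAT1 partner LAPTM4B was lower (103 ± 2.80 against 78.1 ± 1.79 FPKM, -0.40, adjusted p = 3.20e-05). These lists were described by their counts alone, and whether they differ from other genes was not tested.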

How the data were processed

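Libraries for Illumina sequencing were prepared from total RNA with a TruSeq kit, 3 per group. The submitters' processing notes name TopHat2 2.0.12, Bowtie2 2.0.6 and GRCh37, and the sources used here do not give the counting tool, strand setting or annotation. The values deposited by the authors are FPKM (reads relative to gene length and library size) for 29908 genes with 1 column per library and 0 other value columns. Multiplied by GENCODE 29 exon length (GRCh38) and library total, 100% of the values gave whole reads to within 0.01. The depth of 15861039 to 17572714 reads per library limits low genes by counting error. Gene coordinates are those of GENCODE 29 on GRCh38.

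Genes whose mean reached 0.5 FPKM were fitted on log2(FPKM + 0.1) with limma 3.58.1 (eBayes with trend) in R 4.3.3 and Benjamini-Hochberg adjustment over all 14221 genes. Fold changes refer to this scale and are too small for low genes. The fit was tested on simulated reads. Samples were grouped by the sample titles. Replicate numbers did not pair the samples. Values in every library are given for transporter genes with an adjusted p under 0.05 and a fold change of at least 1.5, or a mean of at least 20 FPKM in a group, and of each other list up to 3 genes with the largest change in each direction are named. Alternatives were other filters, pseudocounts and scalings, eBayes without the trend, a replicate block, voom on the recovered reads, and leaving out each library. Of the rule's 59 genes in GENCODE 29, 7 are not in the table and were not analysed here. The values of 1 further gene under the filter and the sequence of 1 seed site are not reported here. The transporter genes, the other lists and the searched sequences were chosen with earlier results of these data known. The hairpin sequence came from the study's supplementary text, promoter windows from RefSeq (GRCh38.p14) and 3′ UTRs from GENCODE 29. Further software was Python 3.11.15 with pandas 2.3.3, numpy 2.4.6, scipy 1.17.1 and matplotlib 3.10.9.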

Additional observations from a re-analysis of the deposited data

How the results depend on the processing

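Of the 28 transporter genes called at an adjusted p under 0.05, all kept their direction under the 16 alternatives, and all but SLC7A9, SLC36A4, SLC38A6 and SLC38A9 kept the call wherever they were tested. Lower calls among the transporter genes numbered 17 to 20 and higher calls 6 to 11. Of the genes not called in the main fit, SLC6A16 was called higher in 3 alternatives, SLC6A11 higher in 2 and SLC43A2 lower in 1. The count of genes lower by at least 2-fold, 8, was 5 with a pseudocount of 1. Centred on the median log ratio, SLC43A1 (-1.0055) and SLC6A6 (-1.045) were also lower by at least 2-fold. With a filter at a mean of 1 FPKM, SLC6A15 was not tested. The count higher by at least 2-fold, 1, was 0 with a pseudocount of 1 or quantile normalization and 2 with a pseudocount of 0.01, with TPM or with voom, and it ranged from 1 to 2 as single libraries were left out, with 2 without Hep3B-Con replicate 2 or Hep3B-KD replicate 1, where SLC6A14 joined SLC38A11. Without Hep3B-Con replicate 1 the single gene was SLC6A14 in place of SLC38A11. The median log2 fold change of -0.40 was -0.0104 with no filter, when all 52 genes were included, -0.30 with a pseudocount of 1 and -0.50 centred on the median log ratio. Over all genes, 1256 passed the 2-fold thresholds and 503 with a pseudocount of 1. Uncalled genes changed sign, none past the threshold: with TPM SLC38A7 (0.0154) and SLC7A7 (0.0158), after centring SLC7A10 (-0.044), with quantile normalization SLC6A11 (-0.0212), SLC6A12 (-0.0459), SLC6A16 (-0.0017) and SLC7A10 (-0.26), and with single libraries left out SLC38A7 (-0.039 to 0.005), SLC6A12 (-0.0393 to 0.36), SLC7A10 (-0.12 to 0.17) and SLC7A7 (-0.0568 to 0.0504). Same-numbered replicates did not deviate together (correlations -0.07, -0.01 and -0.0011). With the replicate number as a block, 1247 genes passed the 2-fold thresholds, and the transporter genes gave 8 lower and 1 higher at 2-fold and 18 lower and 8 higher at any fold change. Depth limits the genes under the filter, where a count of 3 reads or fewer allows no statement on expression.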
